A study of Mus musculus with 24 samples.

Results

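The mouse mitochondrial genome encodes 37 genes, of which 13 encode proteins, 2 encode ribosomal RNAs (rRNAs) and 22 encode transfer RNAs (tRNAs), and their transcripts were followed here in CD11b+ myeloid cells of MC38 tumors. The members were all genes of the mitochondrial chromosome in the GENCODE mouse annotation, and all 37 were found by Ensembl identifier among the 54446 genes of the count tables. MC38 is a colon carcinoma line of C57BL/6 mice, and CD11b marks monocytes, macrophages and neutrophils. WT mice carried loxP-flanked Ythdf2 alleles without Cre, and Ythdf2-cKO mice (labelled cKO) carried the same alleles with Cre expressed from the myeloid gene Lyz2. Both genotypes were young adult mice of both sexes that bore MC38 tumors. Tumors received a single dose of 20 Gy (IR) or none (Ctrl), and the irradiated tumors were taken 3 days later. RNA from pooled animals was selected for polyadenylated transcripts, and libraries were made from this RNA (Input) and from RNA precipitated with an antibody against N6-methyladenosine (m6A), called IP. The 4 combinations of genotype and treatment had 3 replicates for each library type, which made 24 libraries in 8 groups. The methods of the study speak of technical replicates, each from a pool of mice, and the labels name no animals, so p-values measure only the spread between these samples.

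Both strands of the compact circular mitochondrial genome are transcribed as long precursors, and excision of the tRNAs that lie between the other genes releases the mRNAs and rRNAs. The 13 proteins are core subunits of the respiratory chain and of ATP synthase: 7 subunits of complex I (the mt-Nd genes), cytochrome b of complex III (mt-Cytb), 3 subunits of complex IV (mt-Co1, mt-Co2 and mt-Co3) and 2 of ATP synthase (mt-Atp6 and mt-Atp8). mt-Rnr1 and mt-Rnr2 encode the 12S and 16S rRNAs of the mitochondrial ribosome, and mt-Nd6 is the only protein-coding gene read from the opposite strand to the rest. Most of these mRNAs and both rRNAs carry short 3′ adenosine tails, so they survive a poly(A) selection to different degrees.

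Gene counts ranged from 65180075 to 86421888 per library. Markers of macrophages, monocytes and neutrophils were abundant, whereas the summed markers of T and NK cells stayed under 1 CPM in every Input library, where CPM are counts per 1000000 gene counts of the library. The Input libraries carried the Lyz2 level of their labelled genotype, from 19665 to 20891 CPM in WT and from 298 to 419 CPM in cKO. The IP libraries of the irradiated groups did not, since those labelled WT IR held 95.3 to 98.3 CPM of Lyz2 and those labelled cKO IR held 20642 to 20924 CPM. Ythdf2 itself was not lower in the Input libraries labelled cKO (175 to 234 CPM) than in those labelled WT (95.7 to 104 CPM), but counts over the whole gene do not show whether its deleted part was read. Groups are therefore named by their labels throughout, and comparisons of the irradiated IP libraries are given in a paragraph of their own. The edgeR fit for IP over Input used all 24 libraries, so those libraries also entered its count filter, scaling and estimate of the spread.

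One region of the mitochondrial genome has a near-identical nuclear copy, and most genes inside it had low counts. In the mouse reference (GRCm38), chr1:24611535-24616188 on the minus strand holds a nuclear copy of mitochondrial positions 6390 to 11042 with 99.9% identity over 4654 aligned bases. The copy differed at only 3 places, which fell in mt-Co1, mt-Nd3 and mt-Tr, and its longest stretch without a difference was 3067 bases. The letters around the 3 places are shown because only reads that cover them, or that run past the end of the copy, tell the mitochondrial sequence from the nuclear one. The mitochondrial letters are on the plus strand and those of the copy are written in the same orientation. Capitals mark the A6393T substitution in mt-Co1, the T9461C substitution in mt-Nd3 (both positions count from 1 on the mitochondrial chromosome, with the mitochondrial base first) and the run of A in mt-Tr, which has 8 bases in the mitochondrial genome and 9 in the copy.
mt-Co1, chrM:6390-6423: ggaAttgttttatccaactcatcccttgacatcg
mt-Co1 copy, chr1:24616155-24616188: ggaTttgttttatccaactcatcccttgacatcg
mt-Nd3, chrM:9431-9491: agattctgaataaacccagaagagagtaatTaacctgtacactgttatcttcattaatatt
mt-Nd3 copy, chr1:24613087-24613147: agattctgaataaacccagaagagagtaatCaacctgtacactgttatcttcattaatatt
mt-Tr, chrM:9798-9858: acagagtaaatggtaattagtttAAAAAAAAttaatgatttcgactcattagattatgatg
mt-Tr copy, chr1:24612719-24612780: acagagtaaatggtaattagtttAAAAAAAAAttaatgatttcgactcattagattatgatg

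Of all stretches of 100 bases within a gene, 100% were identical to a nuclear sequence in mt-Co2, mt-Atp8, mt-Atp6, mt-Co3 and mt-Nd4l, 98.8% in mt-Nd3, 60.8% in mt-Nd4 and 30.8% in mt-Co1. The share was at most 3.19% in the other 7 protein-coding and rRNA genes. Levels per kb of gene followed the same division. The 6 genes inside the copy had median Input levels of 3.64 (mt-Atp8) to 40.8 (mt-Nd3) CPM per kb, whereas the 9 others had 184 (mt-Nd6) to 19772 (mt-Rnr2) CPM per kb. mt-Co1 and mt-Co2 encode subunits of one enzyme and lie close together on the same strand, and their median Input levels were 2691 and 22.6 CPM per kb. The counts of the 6 genes in the copy measure only the few reads that were assigned to them. Their summed share was 0.0695 to 0.121% of mitochondrial counts in the Input libraries, and their levels are not comparable with those of the other genes. Whether the copy accounts for their low counts was not tested. Reads with several alignments were set aside by the counting and came to 3.67 to 4.26% of the gene counts of a library. 6 pairs of genes on one strand also overlap, 4 of them by 1 or 2 bases, and reads there could be left out as ambiguous. The overlap of mt-Atp8 and mt-Atp6 (43 bases) is shown in capitals because it covers a large part of the short mt-Atp8 gene, and the overlap of mt-Nd4l and mt-Nd4 has 7 bases.
mt-Atp8 end and mt-Atp6 start, chrM:7906-7990: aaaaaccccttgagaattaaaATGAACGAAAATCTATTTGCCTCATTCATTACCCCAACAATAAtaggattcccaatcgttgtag

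**Figure D1:**
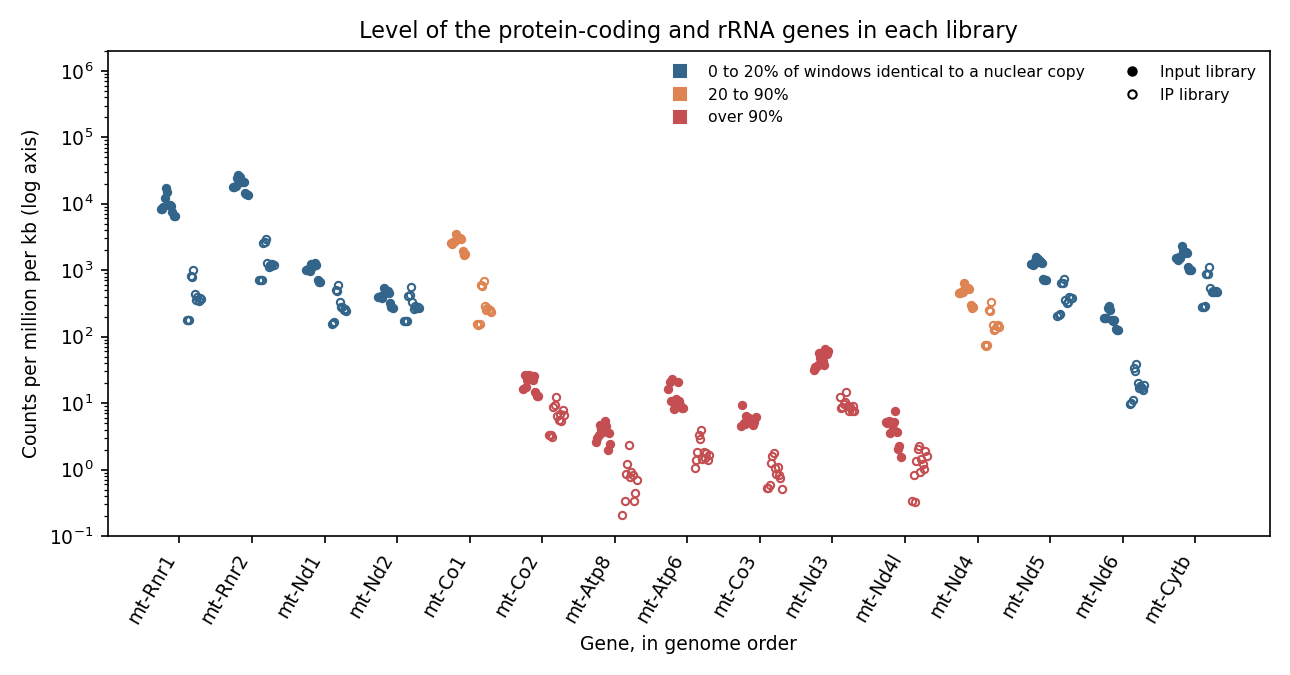
CPM per kb of gene (log axis) of the 13 protein-coding and 2 rRNA genes in genome order, with 1 filled point for each of the 12 Input libraries and 1 open point for each of the 12 IP libraries. The 6 genes with over 90% of their 100-base stretches identical to a nuclear copy (red) lay below all others in Input, with median Input levels of 3.64 to 40.8.

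The share of mitochondrial RNA was higher after IR in WT and lower after IR in cKO. Its share of all Input gene counts was 4.61, 4.63 and 4.84% in WT Ctrl and 6.13, 7.25 and 6.71% in WT IR. It was 5.49, 5.51 and 5.34% in cKO Ctrl and 3.75, 3.47 and 3.39% in cKO IR. None of the 4 groups overlapped another. The mean after IR was 1.43-fold that of Ctrl in WT and 0.65-fold in cKO, where the mean share was 5.45% in Ctrl and 3.54% in IR. Taken alone, 3 libraries against 3 cannot go below a two-sided exact permutation p of 0.1. The difference between the IR effects of the 2 genotypes was -3.91 percentage points (exact permutation test with treatment permuted within genotype, two-sided p = 0.005, the smallest that 400 arrangements can give). Averaged over the genotypes, the IR effect was 0.0468 percentage points (exact permutation p = 0.94), and averaged over the treatments the difference of cKO from WT was -1.20 percentage points (exact permutation p = 0.1). In these bulk samples, a change in the number of mitochondria-rich cells, in mitochondrial RNA per cell or in its yield from poly(A) selection cannot be told apart.

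**Figure D2:**
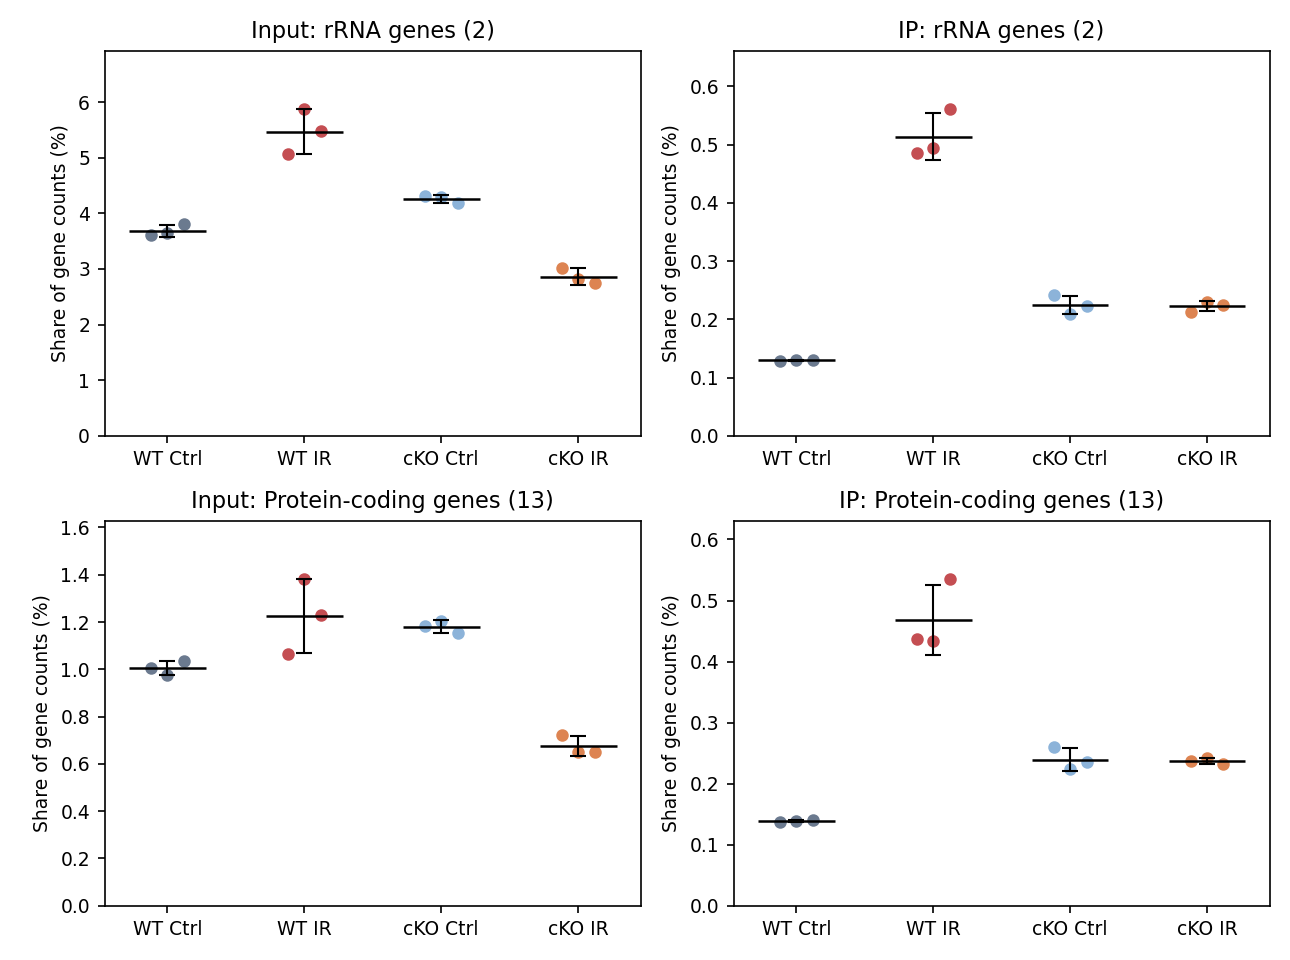
Share of gene counts (%) taken by the 2 rRNA genes and by the 13 protein-coding genes in Input and IP libraries, with 1 point for each library, a line at the group mean and bars for the SD (n = 3). In Input, WT IR lay above WT Ctrl and cKO IR lay below cKO Ctrl for both classes, and the IP panels have their own, smaller axes.

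The rRNAs made up 78.1 to 82.6% of mitochondrial counts in the Input libraries. mt-Rnr2 had 28009, 28536 and 29499 CPM in WT Ctrl and 39073, 42124 and 40334 CPM in WT IR. In cKO it had 34064, 33887 and 33061 CPM in Ctrl and 23135, 21886 and 21243 CPM in IR. The 16S rRNA thus separated Ctrl from IR without overlap in both genotypes, upwards in WT and downwards in cKO. mt-Rnr1 had 8056, 7975 and 8558 CPM in WT Ctrl and 11541, 16550 and 14430 CPM in WT IR. In cKO it had 9018, 9113 and 8778 CPM in Ctrl and 7121, 6315 and 6192 CPM in IR. The 12S rRNA showed the same order of groups with a wider spread among the WT IR libraries. With IR in WT, on the log2 scale, mt-Rnr1 rose by 0.82 ± 0.08 (SE, edgeR adjusted p = 6.31e-08) and mt-Rnr2 by 0.53 ± 0.03 (SE, edgeR adjusted p = 2.41e-11). With IR in cKO both fell, with a log2 fold change of -0.47 ± 0.08 (SE, edgeR adjusted p = 4.32e-05) for mt-Rnr1 and of -0.62 ± 0.03 (SE, edgeR adjusted p = 2.02e-12) for mt-Rnr2. The ratio of mt-Rnr1 to mt-Rnr2 counts was 0.279 to 0.290 in WT Ctrl and 0.295 to 0.393 in WT IR, and it was 0.265 to 0.269 in cKO Ctrl and 0.289 to 0.308 in cKO IR.

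Of the 23 mitochondrial genes with enough counts to be tested (all 13 protein-coding genes, both rRNAs and 8 tRNAs), 11 were called higher with IR in WT and none lower at an edgeR quasi-likelihood adjusted p under 0.05. Over all 16090 genes tested, 14.7% were called higher in that comparison and 17.0% lower. With IR in cKO, 14 of the 23 were called lower and 1, mt-Nd3, higher, beside 23.8% of all genes called lower and 21.8% called higher. The test of the difference between the 2 IR effects called 14 of the 23, all with a lower value in cKO, beside 15.2% of all genes called lower and 15.0% called higher. The protein-coding members had a median log2 fold change of 0.31 with IR in WT and of -0.81 with IR in cKO, and the median over all genes was 0.0057 and 0.010.

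mt-Nd4 is kept with the complex I genes of this paragraph, although 876 of its 1378 bases lie in the copy. Among the complex I genes that are not among the 6 inside the copy, mt-Nd5 was the most abundant. It had 2218, 2218 and 2279 CPM in WT Ctrl and 2502, 2873 and 2704 CPM in WT IR, against 2448, 2493 and 2374 CPM in cKO Ctrl and 1354, 1297 and 1280 CPM in cKO IR. The levels of mt-Nd5 did not overlap between Ctrl and IR in either genotype. Its log2 fold change with IR was 0.30 ± 0.04 (SE, edgeR adjusted p = 2.46e-06) in WT and -0.91 ± 0.04 (SE, edgeR adjusted p = 2.92e-13) in cKO. mt-Nd4 had 626, 623 and 646 CPM in WT Ctrl and 654, 870.2 and 768 CPM in WT IR, against 745, 749.8 and 719.6 CPM in cKO Ctrl and 412, 377 and 379 CPM in cKO IR. mt-Nd1 had 975, 953 and 1005 CPM in WT Ctrl and 917, 1199 and 1085 CPM in WT IR, and these groups overlapped. It fell from 1204, 1237 and 1163 CPM in cKO Ctrl to 692, 637 and 633 CPM in cKO IR. mt-Nd2 had 416, 409 and 428 CPM in WT Ctrl and 401, 557 and 474 CPM in WT IR, which also overlapped, against 489, 510.2 and 478 CPM in cKO Ctrl and 330.4, 289.6 and 279 CPM in cKO IR. For both genes WT IR replicate 1 lay below all WT Ctrl libraries, while WT IR replicate 2 lay above them. The call of mt-Nd2 with IR in WT (0.22 ± 0.08, SE, edgeR adjusted p = 0.0311) was lost without any single one of 5 of the 6 libraries (adjusted p 0.056 to 0.21), and that of mt-Nd1 was not made (adjusted p = 0.0538). In cKO both fell with IR, by 0.89 ± 0.06 (SE) and 0.73 ± 0.08 (SE) on the log2 scale.

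mt-Nd6, the complex I subunit of the opposite strand, had 97.3, 98.4 and 97.8 CPM in WT Ctrl and 139, 149 and 129 CPM in WT IR. It had 91.8, 87.9 and 93.7 CPM in cKO Ctrl and 66.8, 65.7 and 65.6 CPM in cKO IR. Its rise with IR in WT (0.54 ± 0.04, SE, edgeR adjusted p = 7.31e-09) was larger in size than that of mt-Nd5, and its fall in cKO (-0.48 ± 0.04, SE, edgeR adjusted p = 2.67e-08) was smaller. The ratio of mt-Nd5 to mt-Nd6 counts was 22.5 to 23.3 in WT Ctrl and 18.01 to 20.99 in WT IR, and it was 25.3 to 28.4 in cKO Ctrl and 19.5 to 20.3 in cKO IR, so it was lower after IR in both genotypes without overlap. The 2 genes overlap by 14 bases on opposite strands, and the libraries were stranded.

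Cytochrome b and the catalytic subunit of complex IV moved like the complex I genes. mt-Cytb had 1767, 1638 and 1789 CPM in WT Ctrl and 1725, 2627 and 2205 CPM in WT IR, against 2091, 2141 and 2047 CPM in cKO Ctrl and 1291, 1163 and 1154 CPM in cKO IR. mt-Co1 had 3908, 3758 and 4048 CPM in WT Ctrl and 4266, 5480 and 4880 CPM in WT IR, against 4732, 4785 and 4600 CPM in cKO Ctrl and 3034, 2629 and 2666 CPM in cKO IR. The groups of mt-Co1 did not overlap, whereas WT IR replicate 1 of mt-Cytb lay within the range of WT Ctrl. The log2 fold change of mt-Co1 was 0.35 ± 0.06 (SE, edgeR adjusted p = 1.41e-04) in WT and -0.77 ± 0.06 (SE, edgeR adjusted p = 2.71e-09) in cKO. That of mt-Cytb was 0.37 ± 0.09 (SE, edgeR adjusted p = 0.00272) in WT and -0.81 ± 0.09 (SE, edgeR adjusted p = 1.96e-07) in cKO. The ratio of mt-Co1 to mt-Cytb counts stayed between 2.09 and 2.47 over all 12 Input libraries.

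**Figure D3:**
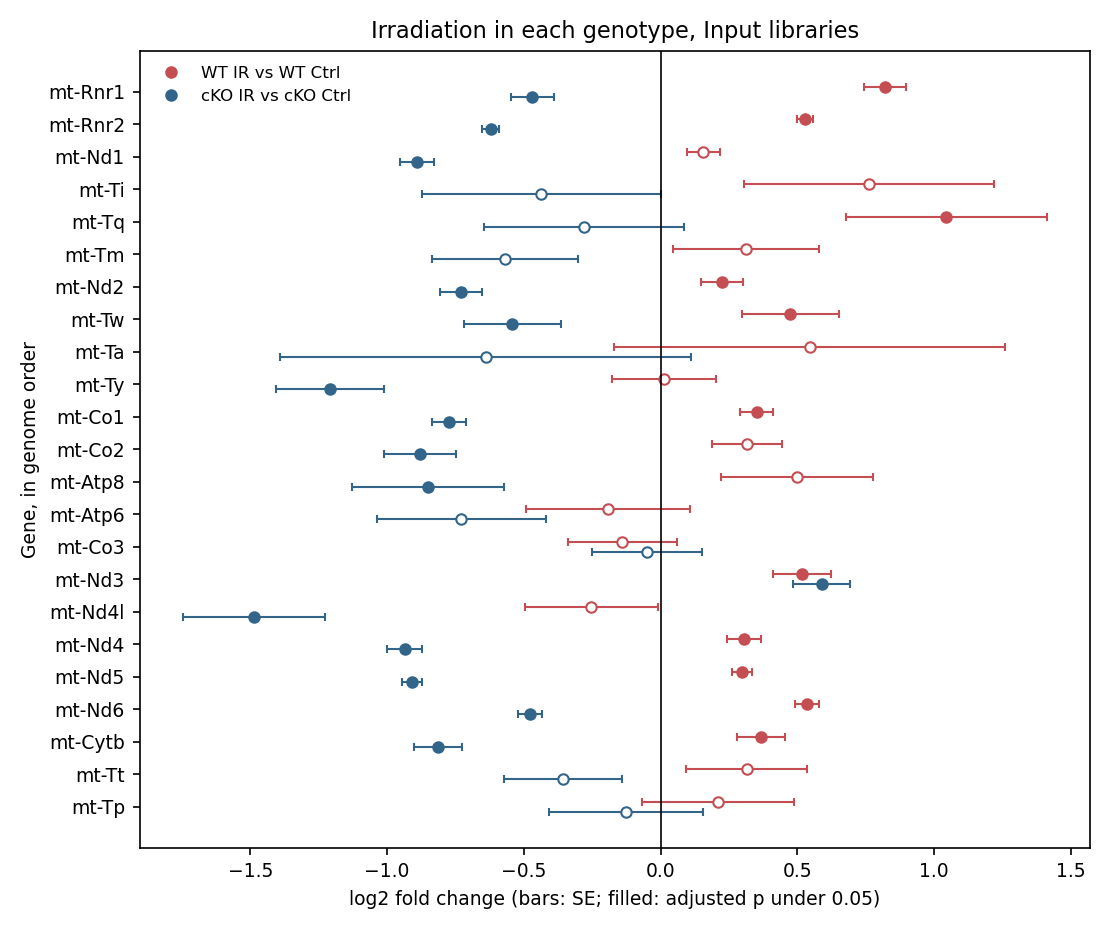
log2 fold changes with IR of the 23 tested genes in Input, in genome order, in WT (red) and cKO (blue), with bars for the SE and filled points for an adjusted p under 0.05. 22 of the 23 points for cKO lie below 0 and 20 of the 23 points for WT lie above 0, with mt-Nd3 above 0 in both.

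The 6 genes inside the nuclear copy gave a mixed picture on far fewer counts. mt-Nd3, another complex I subunit, had 10.9, 12.04 and 12.3 CPM in WT Ctrl and 13.2, 19.5 and 16.7 CPM in WT IR, against 13.4, 15.05 and 12.9 CPM in cKO Ctrl and 22.9, 19.1 and 20.8 CPM in cKO IR. It was the only tested member called higher with IR in both genotypes, with a log2 fold change of 0.52 ± 0.11 (SE, edgeR adjusted p = 7.38e-04) for WT against 0.59 ± 0.10 (SE, edgeR adjusted p = 8.49e-05) for cKO, and the difference between these effects was 0.07 ± 0.15 (SE, edgeR adjusted p = 0.769). mt-Co2 had 11.3, 18.3 and 11.8 CPM in WT Ctrl and 15.4, 17.98 and 17.2 CPM in WT IR, against 17.2, 15.5 and 17.3 CPM in cKO Ctrl and 9.99, 8.75 and 8.64 CPM in cKO IR. mt-Co2 fell with IR in cKO (-0.88 ± 0.13, SE, edgeR adjusted p = 1.34e-05), as did mt-Atp8 and mt-Nd4l, although the call of mt-Atp8 was lost without cKO Ctrl replicate 2 or cKO IR replicate 1 or 3 (edgeR adjusted p 0.053 to 0.076). mt-Atp6 (-0.73 ± 0.31, SE) and mt-Co3 (-0.05 ± 0.20, SE) were not called in cKO. In the test of the difference between the IR effects, the call of mt-Nd4l was lost without cKO Ctrl replicate 2 (edgeR adjusted p = 0.053). The ATP synthase genes mt-Atp8 and mt-Atp6 had 0.40 to 1.10 and 5.59 to 15.8 CPM over the 12 Input libraries, the complex IV gene mt-Co3 had 3.56 to 7.41 CPM and the complex I gene mt-Nd4l had 0.46 to 2.22 CPM. Annotated pseudogenes of the chromosome 1 copy received 12.1 to 38.7 CPM in all in the Input libraries. Of the 7, 6 had a lower fitted IR effect in cKO than in WT, 5 of them with an adjusted p under 0.05, beside 15.2% of all genes called lower. The other, Gm28438, had a higher value (0.38 ± 0.56, SE) and was not called. Gm29216, the pseudogene that corresponds to the end of mt-Co1, had 4.87, 3.98 and 5.52 CPM in WT Ctrl and 4.72, 7.404 and 25.001 CPM in WT IR, where replicate 3 stood apart and the mean was 12.4 CPM with it and 6.06 CPM without it. Gm29216 had a mean of 6.67 CPM in cKO Ctrl and of 3.24 CPM in cKO IR. Whether those reads came from the nuclear or the mitochondrial sequence was not tested.

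Between genotypes, fewer members were called in the unirradiated than in the irradiated groups. In Ctrl, 6 of the 23 genes were called higher in cKO than in WT and none lower, beside 8.05% of all genes called higher and 7.61% called lower. mt-Rnr2 differed by 0.22 ± 0.03 (SE, edgeR adjusted p = 1.90e-05), mt-Nd1 by 0.29 ± 0.06 (SE, edgeR adjusted p = 0.00223) and mt-Co1 by 0.26 ± 0.06 (SE, edgeR adjusted p = 0.00572). The other calls (mt-Nd4, mt-Nd5 and mt-Cytb) were lost without most or all single libraries of the 2 groups (adjusted p 0.052 to 0.18 where lost), and the count was 3 with DESeq2, 12 with only the libraries of the comparison, and 3 or 4 without any single library. Among irradiated groups, 14 of the 23 genes were called lower in cKO than in WT and 1, mt-Nd3, higher, beside 23.8% of all genes called lower and 23.9% called higher. All 9 protein-coding and rRNA genes other than the 6 inside the copy were called lower, with log2 fold changes from -1.17 (mt-Rnr1) to -0.73 (mt-Nd2). The call of mt-Nd3 (0.29 ± 0.10, SE, edgeR adjusted p = 0.0256) was lost without WT IR replicate 1 or 3 or cKO IR replicate 1 or 3 (adjusted p 0.054 to 0.14). That of mt-Atp8 was lost without any one WT IR library or without cKO IR replicate 1 or 3 (adjusted p 0.056 to 0.17), and that of mt-Tw without WT IR replicate 2 (adjusted p = 0.062).

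The tRNA genes were nearly absent, with 450 to 884 counts in all per Input library and 101 to 277 per IP library, and 6 of the 22 (mt-Tk, mt-Tg, mt-Tr, mt-Th, mt-Ts2 and mt-Tl2) had no count in any library. Another 8 had at most 11 counts in a library and were not tested. Mature tRNAs are shorter than the fragments such libraries hold, so these counts can come from precursors as well as from tRNAs. Of the 6 genes without a count, mt-Tk, mt-Tg and mt-Tr lie wholly in the chromosome 1 copy. mt-Th lies wholly and mt-Ts2 partly in a chromosome 2 copy of 129 bases without a difference, and mt-Tl2 lies in no copy. mt-Ts1 and mt-Td also lie wholly in the chromosome 1 copy and had a few counts. Whether the copies account for the missing counts was not tested. 8 tRNA genes passed the filter, and 3 of them (mt-Ty, mt-Tw and mt-Tt) had a mean of at least 100 counts in Input. mt-Ty, the tyrosine tRNA, had 2.95, 3.81 and 3.09 CPM in WT Ctrl and 4.65, 2.61 and 2.48 CPM in WT IR, against 4.57, 3.82 and 4.20 CPM in cKO Ctrl and 1.66, 1.71 and 2.13 CPM in cKO IR. mt-Tw, the tryptophan tRNA, had 1.61, 1.46 and 1.36 CPM in WT Ctrl and 1.61, 2.29 and 2.13 CPM in WT IR, against 2.17, 1.79 and 2.14 CPM in cKO Ctrl and 1.58, 1.31 and 1.33 CPM in cKO IR. Both fell with IR in cKO on the log2 scale, mt-Ty by 1.21 ± 0.20 (SE) and mt-Tw by 0.54 ± 0.18 (SE), and both separated the 2 cKO groups without overlap. mt-Tt, the threonine tRNA, had 1.26, 0.90 and 1.36 CPM in WT Ctrl and 0.99, 1.83 and 1.48 CPM in WT IR, against 1.75, 1.71 and 1.81 CPM in cKO Ctrl and 1.52, 1.37 and 1.26 CPM in cKO IR. It was called with IR in neither genotype, although its 2 cKO groups did not overlap. mt-Tq and mt-Tw were called higher with IR in WT, but mt-Tq was not called without WT Ctrl replicate 1 or 3 or WT IR replicate 2 or 3 (edgeR adjusted p 0.063 to 0.12), and mt-Tw was not called without any one WT Ctrl library or without WT IR replicate 2 or 3 (adjusted p 0.057 to 0.18). In cKO the call of mt-Tw was lost without cKO Ctrl replicate 1 or 3 or cKO IR replicate 2 or 3 (adjusted p 0.053 to 0.059). The other tested tRNA genes (mt-Ti, mt-Tm, mt-Ta and mt-Tp) were called in none of the 5 Input comparisons.

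Other measures also differed between the Input groups. As a share of all uniquely aligned reads (inside genes, outside genes or ambiguous), those outside genes came to 5.21 to 5.30% in WT Ctrl Input and to 5.91 to 6.80% after IR, whereas they came to 4.40 to 4.46% in cKO Ctrl and to 4.10 to 4.30% after IR. The 11 neutrophil markers, all with counts in every group, summed to 3393 to 3517 CPM in WT Ctrl against 889 to 937 CPM after IR. In cKO they summed to 1633 to 1656 CPM in Ctrl against 898 to 912 CPM after IR, so they were lower after IR in both genotypes. The 8 macrophage markers summed to 4243 to 4903 CPM over all Input libraries. Markers of inflammatory monocytes (6 genes) summed to 795 to 855 CPM in WT Ctrl against 246 to 307 CPM after IR, and to 658 to 693 CPM in cKO Ctrl against 389 to 396 CPM after IR. Those of myeloid progenitors (6 genes) summed to 53.7 to 59.01 CPM in WT Ctrl and 16.3 to 18.3 CPM in cKO Ctrl, and to at most 0.271 CPM after IR in either genotype. Those of dendritic cells (6 genes) went the other way in sum, from 405 to 415 CPM in WT Ctrl to 620.1 to 639 CPM after IR, and from 461 to 467 CPM in cKO Ctrl to 702 to 737 CPM after IR. Not every gene of that list rose, since Xcr1 and Cd209a had counts in WT Ctrl Input and were at 0 in WT IR Input. Xcr1 was also at 0 in cKO Ctrl Input. Markers of B cells, of epithelial tumor cells and of fibroblasts and endothelium summed to at most 8.05 CPM in every Input library. The 5 erythroid markers (Hba-a1, Hba-a2, Hbb-bs, Hbb-bt and Alas2) summed to 27.4 to 29.9 CPM in WT IR Input and to at most 0.0668 CPM in the other Input groups, where Hba-a2 and Hbb-bt (cKO Ctrl) and Hba-a2 and Hbb-bs (cKO IR) were at 0. The part of any of these measures in the mitochondrial share was not tested.

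Mitochondrial RNA took a far smaller share of the IP than of the Input libraries. Its share of gene counts in IP libraries was 0.266, 0.269 and 0.271% in WT Ctrl and 0.501, 0.433 and 0.458% in cKO Ctrl, which is 17.5-fold and 11.7-fold below the Input means of the same groups. Over these unirradiated groups alone, an alternative to the main test over all groups, the IP share was -4.70 percentage points from the Input share (exact permutation test with library type permuted within groups, two-sided p = 0.005, the smallest that 400 arrangements can give). In WT Ctrl all 23 tested genes were called lower in IP than in Input, beside 37.5% of all 17373 genes called lower, and in cKO Ctrl 22 of the 23 were, beside 36.0%. Of the 23, mt-Ta, mt-Ti and mt-Tq passed the count filter through Input libraries only. They had at most 9, 4 and 8 counts in an IP library, so the filter itself favoured a lower value in IP and their calls carry no weight. The groups of Input and IP libraries did not overlap for any of the 23 genes in WT Ctrl. The share of all genes without such overlap was not computed, so this is not read as a trait of the mitochondrial genes. IP over Input is relative to the other transcripts of the same library, so it ranks transcripts and gives no stoichiometry of m6A.

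The 13 protein-coding and 2 rRNA genes differed widely in how far they were depleted. mt-Rnr1 went from 8056, 7975 and 8558 CPM in the WT Ctrl Input libraries to 171, 169.6 and 172 CPM in IP, a log2 IP over Input of -5.80 ± 0.10 (SE, edgeR adjusted p = 6.35e-32). mt-Rnr2 went to 1111, 1135 and 1126 CPM (-4.89 ± 0.04, SE, edgeR adjusted p = 6.61e-39). The rRNAs made up 47.9 to 48.7% of mitochondrial counts in the unirradiated IP libraries, below every Input library. At the other end of the 15, mt-Nd2 had 416, 409 and 428 CPM in WT Ctrl Input and 179, 177 and 176 CPM in IP (-1.45 ± 0.09, SE, edgeR adjusted p = 2.74e-16). mt-Nd6 was depleted further than mt-Nd5, which lies opposite to it. mt-Nd6 had 4.95, 5.20 and 5.74 CPM in WT Ctrl IP (-4.42 ± 0.08, SE, edgeR adjusted p = 1.26e-31), and mt-Nd5 had 370.4, 386 and 398 CPM (-2.75 ± 0.05, SE, edgeR adjusted p = 4.76e-32). The ratio of mt-Nd5 to mt-Nd6 counts was 69.4 to 74.8 in WT Ctrl IP, against 22.5 to 23.3 in the matching Input libraries. mt-Co1 also stood low, at 242, 235 and 236 CPM (-4.25 ± 0.07, SE, edgeR adjusted p = 2.06e-32), so that the ratio of mt-Co1 to mt-Cytb was 0.722 to 0.762 in WT Ctrl IP and 2.21 to 2.29 in Input. mt-Ta, a tRNA gene with 0 counts in all WT Ctrl IP libraries, is given no fold. Among the other tRNA genes, log2 IP over Input in WT Ctrl ran from -5.95 ± 0.34 (mt-Ty, SE) to -1.32 ± 0.22 (mt-Tw, SE).

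**Figure D4:**
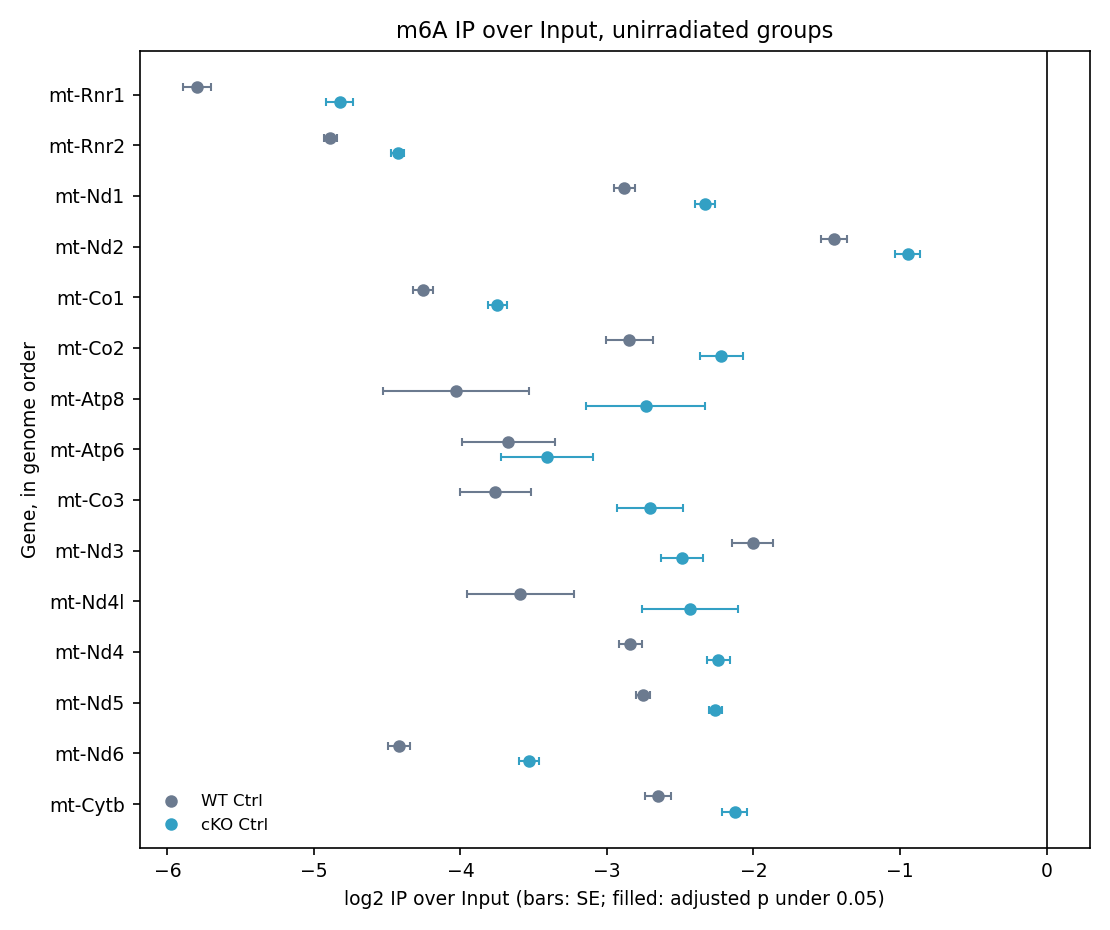
log2 IP over Input of the 13 protein-coding and 2 rRNA genes in genome order in WT Ctrl (grey) and cKO Ctrl (light blue), with bars for the SE and filled points for an adjusted p under 0.05. All 30 points lie below 0, mt-Rnr1 lowest and mt-Nd2 highest in both groups, and cKO Ctrl lies above WT Ctrl for every gene except mt-Nd3.

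None of the 189264 peaks in the 12 deposited m6A peak lists lay on the mitochondrial chromosome, and none lay in the chromosome 1 copy. The methods of the study do not say whether the mitochondrial chromosome was kept in peak calling, and few reads can be placed uniquely in the copy. The absence of peaks therefore does not show an absence of m6A. A common form of the m6A motif was searched as GGACT on the sense strand. It occurred 12 times in the 15 protein-coding and rRNA genes (0.861 per kb), in 7 of the 15, and in none of the 22 tRNA genes. In the longest GENCODE transcript of each of 12811 tested nuclear protein-coding genes it occurred 1.09 times per kb, and 69.9% of the transcripts of at least 1000 bases held it in their first 1000 bases. mt-Rnr1, which was depleted furthest of the 15, holds 3 copies, mt-Nd2, which was depleted least, holds 2, and mt-Nd5, mt-Cytb, mt-Nd1, mt-Nd6 and mt-Co1 hold none. The presence of these letters does not show a methylated site.

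The depletion in IP was smaller in cKO Ctrl than in WT Ctrl. Over all genes, the median size of log2 IP over Input was also smaller, at 0.865 in cKO Ctrl and 0.896 in WT Ctrl. Whether this has a part in the mitochondrial difference was not tested. In IP, mt-Rnr1 had 417, 344 and 373 CPM in cKO Ctrl and mt-Rnr2 had 1995, 1751 and 1860 CPM, each above all WT Ctrl IP libraries. mt-Nd5 had 639, 579.7 and 605 CPM and mt-Cytb had 627, 531 and 557 CPM in cKO Ctrl IP, against 318, 315 and 326 CPM of mt-Cytb in WT Ctrl IP. The change in log2 IP over Input between the genotypes was called for 11 of the 23 genes, all higher in cKO, beside 10.1% of all genes called higher and 12.5% called lower. It was 0.97 ± 0.11 (SE, edgeR adjusted p = 3.20e-08) for mt-Rnr1, 0.89 ± 0.10 (SE, edgeR adjusted p = 4.13e-08) for mt-Nd6 and 0.49 ± 0.06 (SE, edgeR adjusted p = 9.75e-08) for mt-Nd5. All 9 protein-coding and rRNA genes other than the 6 inside the copy were among the 11, with values from 0.46 (mt-Rnr2) to 0.97 (mt-Rnr1). The other calls were mt-Co2 and mt-Co3. mt-Co2 was not called without any one WT Ctrl IP library, WT Ctrl Input replicate 2, cKO Ctrl IP replicate 1 or 3 or cKO Ctrl Input replicate 2 (edgeR adjusted p 0.055 to 0.18), and mt-Co3 was not called without WT Ctrl IP replicate 1 or 2, WT Ctrl Input replicate 2 or cKO Ctrl IP replicate 3 (adjusted p 0.051 to 0.11). Of the exceptions, mt-Nd3 had -0.48 ± 0.20 (SE) and was not called.

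The irradiated IP libraries, whose Lyz2 level was that of the other genotype, gave a share of 0.924, 0.927 and 1.10% in those labelled WT IR and 0.450, 0.471 and 0.457% in those labelled cKO IR. By label, 23 of the 23 tested genes were called lower in IP than in Input in WT IR, beside 36.5% of all genes, and 21 of the 23 in cKO IR, beside 36.9%. The 23 again include mt-Ta, mt-Ti and mt-Tq, which passed the count filter through Input libraries only. The share in both groups was below that of every Input library. Over all 4 combinations of genotype and treatment, the IP share was -4.55 percentage points from the Input share (exact permutation test with library type permuted within combinations, two-sided p = 1.25e-05, the smallest that 160000 arrangements can give). mt-Nd2, the least depleted, was not called in WT IR without IP replicate 1 or 2 or Input replicate 2 (edgeR adjusted p 0.068 to 0.15), nor in cKO IR without Input replicate 1 (adjusted p = 0.11), and mt-Ta was not called in WT IR without IP replicate 1 or 3 (adjusted p 0.087 to 0.14). Values of log2 IP over Input ran from -4.34 (mt-Rnr1) to -0.25 (mt-Nd2) over the protein-coding and rRNA genes in WT IR and from -4.39 (mt-Rnr1) to -0.24 (mt-Nd2) in cKO IR, so that mt-Rnr1 was lowest and mt-Nd2 highest as in the unirradiated groups. By label, the difference of the IR effects on the IP share between the genotypes was -0.719 percentage points (exact permutation, two-sided p = 0.04). Its p was 0.08 without cKO Ctrl IP replicate 1 and 0.05 without cKO IR IP replicate 1, and its direction rests on the labels of the libraries whose Lyz2 level was that of the other genotype. Without the irradiated IP libraries no IR effect can be computed in IP.

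Nuclear genes that maintain, transcribe and process the mitochondrial genome moved in either direction in Input. With IR in WT, 3 of 9 genes of mitochondrial transcription were called lower and none higher, beside 17.0% and 14.7% of all genes. These were Polrmt, the mitochondrial RNA polymerase (-0.25 ± 0.07, SE, edgeR adjusted p = 0.007), Mrpl12 (-0.24 ± 0.06, SE, edgeR adjusted p = 0.00266) and Tfb2m, a transcription initiation factor (-0.22 ± 0.08, SE, edgeR adjusted p = 0.0368). The list had a median log2 fold change of -0.18 in WT and 0.12 in cKO, and the median over all genes was 0.0057 and 0.010. With IR in cKO, 2 of the 9 were called higher and 1 lower, beside 21.8% and 23.8% of all genes. Tefm, the transcription elongation factor (0.49 ± 0.10, SE, edgeR adjusted p = 3.92e-04), and Mrpl12 (0.32 ± 0.06, SE, edgeR adjusted p = 8.54e-05) rose, and Polrmt fell (-0.46 ± 0.07, SE, edgeR adjusted p = 1.13e-05). The difference between the IR effects was called higher in cKO for 3 of the 9 and lower for none, beside 15.0% and 15.2% of all genes, and the 3 were Tefm (0.75 ± 0.15, SE), Mrpl12 (0.56 ± 0.08, SE) and Tfb2m (0.34 ± 0.11, SE).

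The shares of all genes called with IR in Input, 14.7% higher and 17.0% lower in WT and 21.8% higher and 23.8% lower in cKO, are the background of the counts that follow. Of 13 genes of mitochondrial DNA maintenance, 1 was called higher and 2 lower with IR in WT, and 3 higher and 2 lower in cKO, shares near or below that background, with medians of -0.10 and 0.015. Rrm2b, a p53-induced ribonucleotide reductase subunit, rose in both, with log2 fold changes of 0.22 ± 0.06 (SE, edgeR adjusted p = 0.0113) for WT against 0.43 ± 0.06 (SE, edgeR adjusted p = 1.14e-05) for cKO. Lonp1, the mitochondrial Lon protease, fell in both, with log2 fold changes (± SE) of -0.13 ± 0.04 in WT and -0.37 ± 0.04 in cKO. Of 18 tested genes of mitochondrial RNA processing, stability and decay (19 listed), none was called higher and 2 lower in WT, and 5 higher and 3 lower in cKO, with medians of -0.038 and -0.0099. Slirp, an RNA-binding protein that stabilises mitochondrial mRNAs, rose in cKO by 0.60 ± 0.10 (SE, edgeR adjusted p = 3.44e-05), and its difference between the IR effects was 0.57 ± 0.14 (SE). Of 18 genes of mitochondrial rRNA and tRNA modification, 4 were called lower and none higher in WT, and 2 higher and none lower in cKO, with medians of -0.099 and 0.083. Tfb1m, a 12S rRNA methyltransferase, rose in cKO by 0.35 ± 0.10 (SE, edgeR adjusted p = 0.00883). Of 6 regulators of mitochondrial biogenesis, 4 were called lower in each genotype, and 1 was called higher in cKO, with medians of -0.19 and -0.25. Ppargc1b, a transcriptional coactivator, fell in both, with log2 fold changes of -0.33 ± 0.08 (SE, edgeR adjusted p = 0.00227) in WT and -0.68 ± 0.08 (SE, edgeR adjusted p = 3.80e-07) in cKO. Pprc1, a coactivator of the same family, also fell in both (log2 fold change ± SE of -0.24 ± 0.05 in WT and -0.59 ± 0.05 in cKO).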

How the data were processed

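CD11b+ myeloid cells were profiled by m6A sequencing (MeRIP-seq) in 12 Input and 12 IP libraries. By the methods of the study, Trimmomatic 0.39 removed adapters, HISAT placed the reads on mm10, and the authors obtained strand-specific counts per GENCODE gene with HTSeq. The deposited gene counts are not normalized, with 65180075 to 86421888 counts per library, and reads outside genes, ambiguous and not uniquely aligned are listed in rows of their own, which were kept out of library sizes and tests. The authors called peaks with MACS2 for each library, and the deposited peak lists give a score, the fold enrichment ratio and −log10 p and q values, of which only positions and enrichment were used.

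Members were matched to GENCODE vM21 by Ensembl identifier without version (54409 of 54446 identifiers matched). A gene was tested if 3 or more libraries held 10 or more of its counts, with edgeR 4.0.16 quasi-likelihood fits (TMM scaling, R 4.3.3) on all genes, in the 12 Input libraries for IR and genotype and in all 24 for IP over Input, with Benjamini-Hochberg adjustment and a threshold of 0.05. CPM values are counts per 1000000 gene counts of the library, without scaling factors. Shares were compared by exact permutation tests (two-sided, 7 main tests, unadjusted), and a comparison of 3 against 3 libraries alone cannot go below p = 0.1. The test of IP against Input in the unirradiated groups alone was an alternative outside these 7. DESeq2 1.42.0, other scaling and filters, left-out libraries and a replicate block were alternatives. On data simulated for WT IR against WT Ctrl, the fit recovered 97 of 100 genes changed 1.5-fold and 100 of 100 changed 2-fold, with 14 false calls among 15615 genes. Nuclear copies were found with BLAST 2.17.0 in GRCm38 (at least 90% identity over at least 100 bases). All 13 protein-coding and 2 rRNA genes are named, as are tRNA genes with a mean of at least 100 Input counts, the rest are given by range, and other genes are the called list members with the largest changes. 1 marker gene is not reported here and was left out of its list. The members, gene lists and alternatives were chosen with earlier results of these data known.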

Additional observations from a re-analysis of the deposited data

Results flagged for a closer look

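The effect of IR on mitochondrial transcripts in Input differed between the 2 genotypes by a test of the difference itself. The mitochondrial share of gene counts changed by -3.91 percentage points more in cKO than in WT (exact permutation test, two-sided p = 0.005, the smallest the design allows). Among the tested genes, the log2 IR effect in cKO minus that in WT passed the edgeR interaction test for 14 of 23 genes. It was -1.29 for mt-Rnr1, -1.15 for mt-Rnr2, -1.05 for mt-Nd1, -0.95 for mt-Nd2, -1.02 for mt-Tw, -1.22 for mt-Ty, -1.13 for mt-Co1, -1.20 for mt-Co2, -1.35 for mt-Atp8, -1.23 for mt-Nd4l, -1.24 for mt-Nd4, -1.21 for mt-Nd5, -1.01 for mt-Nd6 and -1.18 for mt-Cytb. Among these 14, the effects in WT and cKO had opposite signs for 13, and mt-Nd4l had a negative value in both.

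The log2 IP over Input differed between cKO Ctrl and WT Ctrl by a test of the difference for 11 genes. It was higher in cKO by 0.97 for mt-Rnr1, 0.46 for mt-Rnr2, 0.55 for mt-Nd1, 0.50 for mt-Nd2, 0.51 for mt-Co1, 0.63 for mt-Co2, 1.06 for mt-Co3, 0.60 for mt-Nd4, 0.49 for mt-Nd5, 0.89 for mt-Nd6 and 0.52 for mt-Cytb.

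In the IP libraries, the IR effect on the mitochondrial share differed between the genotypes as labelled, by -0.719 percentage points (exact permutation test, two-sided p = 0.04). Its p was 0.08 without cKO Ctrl IP replicate 1 and 0.05 without cKO IR IP replicate 1. This value rests on the irradiated IP libraries, which held the Lyz2 level of the other genotype, and its direction rests on their labels.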

How the results depend on the processing

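The difference of the IR effects on the Input share kept its direction and its side of the threshold under every alternative run, and lay between -4.19 and -3.63 percentage points without any single library. Of the 14 genes called for that difference, 13 were called in every alternative and mt-Nd4l was not, and the count was 13 to 15 without any single library. The count of genes called higher in cKO Ctrl than in WT Ctrl, 6 as reported, was 3 with DESeq2, 10 without a filter beyond 1 count in any library, 12 with only the libraries of the comparison, and 3 to 4 without any single library. It was 3 without WT Ctrl replicate 1 or 3 or cKO Ctrl replicate 1 or 2. The cause was not tested. Every other count of called members stayed within 1.5 times its reported value, and without any single library those for IR in WT ran from 8 to 14 and those for IR in cKO from 13 to 15.

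The IR effect on the Input share averaged over genotypes, which passed no test, turned negative for protein-coding genes alone (-0.143 percentage points), for protein-coding genes over all protein-coding counts (-0.141), and without WT IR replicate 2 or cKO IR replicate 1 (range without any single library -0.0919 to 0.188). In IP, by label, the difference of the IR effects lost its call for rRNA genes alone (-0.386), and without cKO Ctrl replicate 1 or cKO IR replicate 1 (range -0.748 to -0.662, exact permutation p 0.02 to 0.08). The averaged IR effect in IP gained one without cKO Ctrl replicate 1 (range 0.326 to 0.369). With 1 library fewer, these tests have fewer arrangements.

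Of 3420 values of single genes under an alternative, 3257 kept direction and call, 98 lost a call, 41 gained one and 24 changed sign, none of them called as reported. With IR in WT, mt-Ty was -0.0192 with library totals and no scaling factors. Without single libraries the log2 values that changed sign ran, with IR in WT, from -0.34 to 0.18 for mt-Ty, -0.82 to 0.071 for mt-Atp6, -0.33 to 0.27 for mt-Co3 and -0.059 to 0.46 for mt-Tp. Between the Ctrl groups they ran from -0.53 to 0.081 for mt-Atp6, -0.41 to 0.19 for mt-Co3, -0.25 to 0.12 for mt-Tp and -0.25 to 0.27 for mt-Nd4l. They ran from -0.31 to 0.11 for mt-Tt between the irradiated groups and from -0.17 to 0.042 for mt-Co3 with IR in cKO. For the difference of the IR effects they ran from -0.80 to 0.090 for mt-Atp6, -0.32 to 0.28 for mt-Co3 and -0.060 to 0.21 for mt-Nd3. For IP over Input between the Ctrl groups they ran from -0.97 to 0.76 for mt-Ti and -1.13 to 0.90 for mt-Tq.

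Same-numbered libraries correlated between -0.035 and 0.0398 in their deviations from group means. These values gave no sign that replicate numbers pair the samples, but they cannot show that the samples were unpaired. With the replicate number as a block, counts of called members stayed within 1.5 times, and mt-Ty with IR in WT was -0.0122. Peak lists held no mitochondrial peak at any enrichment, so the stricter 4-fold minimum changed nothing and the planned overlap of peaks could not give a value. All tRNA genes together held 450 to 884 counts in an Input library.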
